A study of Mus musculus with 14 samples.

Results

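The data compare the paws of wild-type (WT) mice on postnatal day 0 (P0, the day of birth) with those on postnatal day 3 (P3). The comparison was chosen by genotype and day from the sample titles and takes 9 of the 14 libraries of the series, 4 of P0 WT paws and 5 of P3 WT paws. The other 5 libraries came from paws labelled Krt9-/-, which lack the keratin of palm and sole epidermis, and enter here only where the day change of both genotypes is compared. The tissue was the whole paw in every library, and the labels name no treatment and no strain. The P0 WT mice were labelled as a male of litter 1, a female of litter 2, a male of litter 3 and a female of litter 4 (replicates 1 to 4). The P3 WT mice were labelled as a male of litter 1, 2 males of litter 2, a female of litter 7 and a female of litter 8 (replicates 1 to 5). The labels do not say how many paws or animals went into a library, so the p-values measure the spread between these samples.

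A newborn limb leaves the womb with its skeleton, muscles and skin formed but immature. In the days after birth muscle fibres exchange embryonic contractile proteins for adult ones, hair follicles and foot pads grow, axons gain myelin, fat cells fill, pigment cells start to make melanin, and the bones mineralise around a young marrow. The animal also passes from the hormones, oxygen and food of the mother to its own. RNA of a whole paw sums over all these tissues, and fewer cells of a type and less RNA per cell cannot be told apart in it.

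Of 21619 genes tested, 3581 (16.6%) differed between the days at an adjusted p under 0.05 by edgeR's quasi-likelihood test. On P3, 1836 of them were higher (8.49% of genes tested) and 1745 were lower (8.07%), and 1249 changed at least 2-fold (624 higher, 625 lower). Every P3 library lay above every P0 library for 1938 genes and below for 1672 (together 16.7% of genes tested), and 2597 of these 3610 were among the genes called. Here log2 fold changes are fitted values of P3 against P0 with their standard errors (SE), levels are TMM-scaled CPM, the reads of a gene relative to the total of its library, and a gene "rose" or "fell" only if it was called. Library totals ran from 29019059 to 41004173 counts. On the first principal component, computed on the 1000 genes of highest variance and holding 54.1% of it, the P0 libraries lay at -39.3, -42.0, -42.5 and -24.5 and the P3 libraries at 56.2, 46.3, 6.20, 10.5 and 29, so the days did not overlap.

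Several features of the libraries touch the results. The deposited columns form 2 alphabetical runs, which is a property of the table and not a stated batch. The second run holds P0 replicate 4 and P3 replicates 1 and 5, and the first run holds the other 6 WT libraries. With the run as a term 5570 genes were called, the first run alone gave 6563 and the second alone, which has 1 P0 library, gave 985. In the second run 184 of the 3581 genes had the opposite sign. The label of P0 replicate 4 gives a female, yet Xist, transcribed from the inactive X, was at 0.181 CPM there and Ddx3y, a gene of the Y, at 0.155 CPM. The fit has a term for sex and kept this label, and a changed label was not tested. With no sex term 3415 genes were called. Without P0 replicate 4 the count was 4108, and without P0 replicates 1, 2 or 3 it was 1764, 1984 and 1629. The labels give litter numbers, and with litter as a fixed replicate block 3 genes were called by edgeR, Calca (-6.20), Krt6a (-3.61) and Krt2 (5.52), with Krt6a sharing near-identical sequence with Krt6b, against 3252 with litter as a random block and 1904 among the WT libraries of litters 1 and 2 alone. All other calls below were lost with the fixed block. That fit leaves few libraries to measure the spread, because litters with 1 library add nothing to it. In litter 2 the P0 mouse was labelled female and both P3 mice male, so day and sex cannot be told apart there. How much of the loss is due to litter was not tested, and the random block put the correlation within litter numbers at -0.054. Calca differed by -5.28 in the first run and -7.89 in the second, Krt2 by 5.23 and 3.98, and Krt6a by -3.86 and -0.37. Because the number of calls moved with the library left out, each count of 3 or more called list members below is followed by its value without any library that moved it by over 1.5 times. Of all genes tested 8.49% rose and 8.07% fell, and a list count near or below these shares does not set the list apart. The lists were chosen with earlier results of these data known. A count above these shares is therefore a description and not a test of the list. For the difference between the WT and the Krt9-/- day change edgeR called 0 genes (0% of those tested), with 1644 at an unadjusted p under 0.05, and voom called 0 and DESeq2 87.

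**Figure D1:**
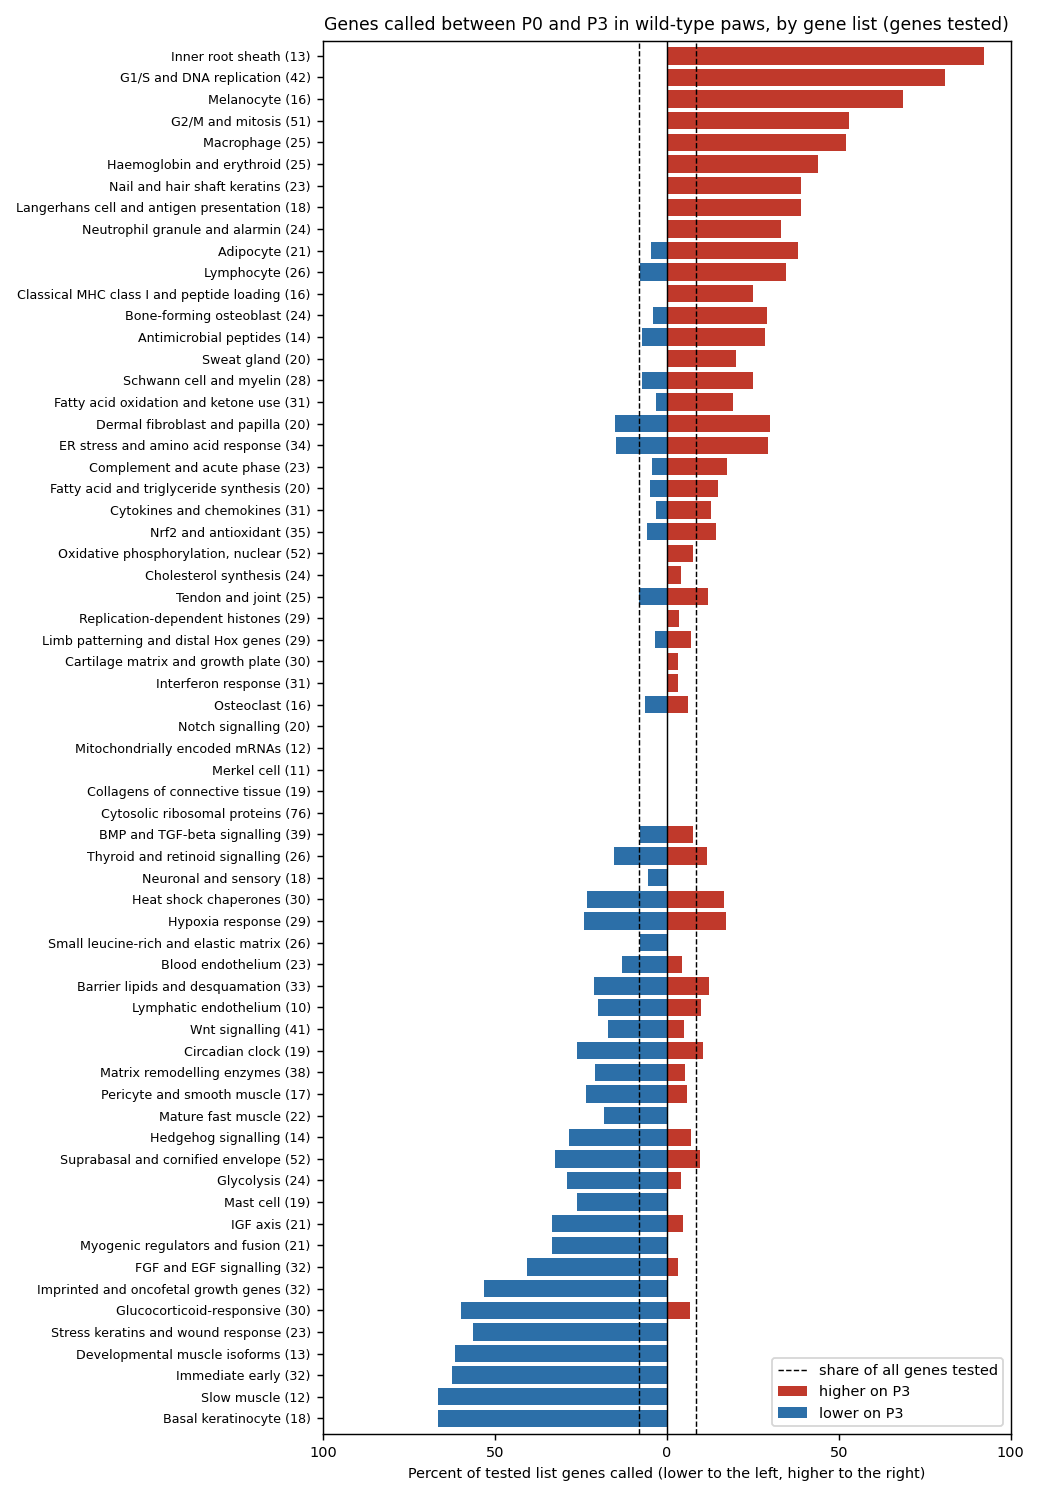
Percent of the tested genes of each of 64 gene lists that were called higher (red, to the right) or lower (blue, to the left) on P3 than on P0 in WT paws, with the number tested after each name. Dashed lines mark the share of all genes tested (8.49% higher, 8.07% lower). Inner root sheath, DNA replication and melanocyte genes lie at the higher end, and basal keratinocyte, slow muscle and immediate early genes at the lower end.

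Genes that answer to glucocorticoids, the adrenal steroids that surge around birth, were mostly lower on P3. Of 30 tested, 18 fell and 2 rose, with a median log2 fold change of -0.83 (all genes tested had a median of -0.00964). The P0 libraries held 142, 189, 214 and 127 CPM of Fkbp5 (ENSMUSG00000024222.18), a chaperone of the steroid receptor complex, and the P3 libraries 24.1, 28.4, 32.5, 30 and 32.1 CPM. No P3 library came near the lowest P0 library, and Fkbp5 fell by 2.50 on the log2 scale (SE 0.25, edgeR's adjusted p = 0.000332). Zbtb16 (ENSMUSG00000066687.6), a zinc finger factor, went from 43.6, 67.6, 57.7 and 32.0 CPM to 2.15, 3.71, 3.20, 3.32 and 3.00 CPM. Its log2 fold change of -3.99 (SE 0.33, edgeR's adjusted p = 0.000241) was the largest drop of the list. Tsc22d3, which encodes the anti-inflammatory protein GILZ, fell by 2.00 (SE 0.21), from 221 ± 76.8 CPM (SD, n = 4) to 54.9 ± 3.24 CPM (n = 5). Glul, the glutamine synthetase, fell by 1.10 (SE 0.15). The 2 members that rose were Angptl4, an inhibitor of lipoprotein lipase, by 2.07 (SE 0.44), and Nr3c1, the glucocorticoid receptor itself, by 0.34 (SE 0.09). The call of Nr3c1 was lost without P0 replicates 1 or 3 or P3 replicate 5 (0.35, 0.33 and 0.31). P0 replicate 4 had the lowest P0 level of Fkbp5, Zbtb16 and Tsc22d3, and the summed level of the list was 2420, 3410, 3220 and 1830 CPM on P0 against 1370 to 1650 CPM on P3. The list's median was -1.02 in the first column run and -0.33 in the second, with 22 and 8 members lower.

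Of 19 clock genes tested, 5 fell and 2 rose (median -0.28). The direction of the list differed between the column runs. Its median was -0.43 in the first run, with 9 lower, and 0.12 in the second, and Per1 differed by -2.55 and -0.64. P0 replicate 4 is the only P0 library of the second run, so run and library cannot be told apart. Per1, a repressor of the clock that glucocorticoids also induce, fell by 2.23 (SE 0.36), from 173, 242, 215 and 69.4 CPM to 68.4, 29.9, 37.0, 37.9 and 21.1 CPM, with P0 replicate 4 just above the highest P3 library. Cry1 (-0.98, SE 0.14) and Cry2 (-1.11, SE 0.17), partners of the period proteins, and Nfil3 (-0.89, SE 0.15), a repressor of clock output, fell as well. The genes that rose were Per3 (1.18, SE 0.21) and Dbp (0.98, SE 0.25), an output factor of the clock, whose call was lost without P0 replicates 1 or 2 (0.90 and 0.95). The labels do not give the time of day of collection.

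Immediate early genes, which cells transcribe within minutes of a stimulus, gave 20 of 32 lower and 0 higher (median -0.86). Yet for only 2 of the 32 did the groups not overlap, with all P3 libraries below all P0 libraries. The same held for 1672 of all 21619 genes tested, so by this measure the list did not stand out. The count of 20 was 6 and 7 without P0 replicates 2 or 3, 13 without either P3 replicate 2 or 5, and 12 with no sex term. Myc (ENSMUSG00000022346.18), a growth regulator, stood at 85.7, 81.4, 103 and 44.0 CPM on P0 and at 40.7, 39.1, 36.6, 41 and 28.3 CPM on P3 (log2 fold change -1.09, SE 0.17, edgeR's adjusted p = 0.00125). Zfp36, which encodes an mRNA decay factor, held 79.1, 76.6 and 86.7 CPM in P0 replicates 1 to 3 and 33.6 CPM in replicate 4, and 26.1 to 38.9 CPM on P3. P0 replicate 4 therefore lay among the P3 libraries for Zfp36 and close to them for Myc. Within the second column run, where it is the P0 library, the list's median was 0.10 with 1 member higher and 0 lower, against -1.01 and 26 lower in the first run. Socs3, a feedback inhibitor of cytokine receptors, differed by -0.94 in the first run and -0.89 in the second (-1.02 in all, SE 0.19), and Ccn2, a matricellular growth factor, by -2.46 and -0.36 (-2.01 in all, SE 0.34).

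The smallest adjusted p of all genes tested belonged to Hmox1 (ENSMUSG00000005413.9), the heme oxygenase that breaks down heme and is induced by oxidants. Its level was 270, 274, 257 and 212 CPM on P0 and 77.5, 63.7, 70.8, 69.7 and 60.0 CPM on P3. The groups lay far apart, with a log2 fold change of -1.91 (SE 0.14, edgeR's adjusted p = 1.45e-05), and the difference was -1.94 in the first run and -1.63 in the second. Of 35 genes of the antioxidant factor Nrf2 and of antioxidant defence, 5 rose and 2 fell (median 0.07). Of these genes 3 were higher without P0 replicates 1 or 3, and 5 were lower without P0 replicate 4. Not all members are Nrf2 targets, since Nrf2 itself and general antioxidant enzymes are among them. Srxn1, which repairs peroxiredoxins, was the other that fell (-1.07, SE 0.18), by 1.28 in the first run against 0.10 in the second. Taldo1, a transaldolase of the pentose phosphate pathway, rose from 74.3 ± 2.60 CPM (SD, n = 4) to 118 ± 5.88 CPM (n = 5), by 0.67 (SE 0.10).

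**Figure D2:**
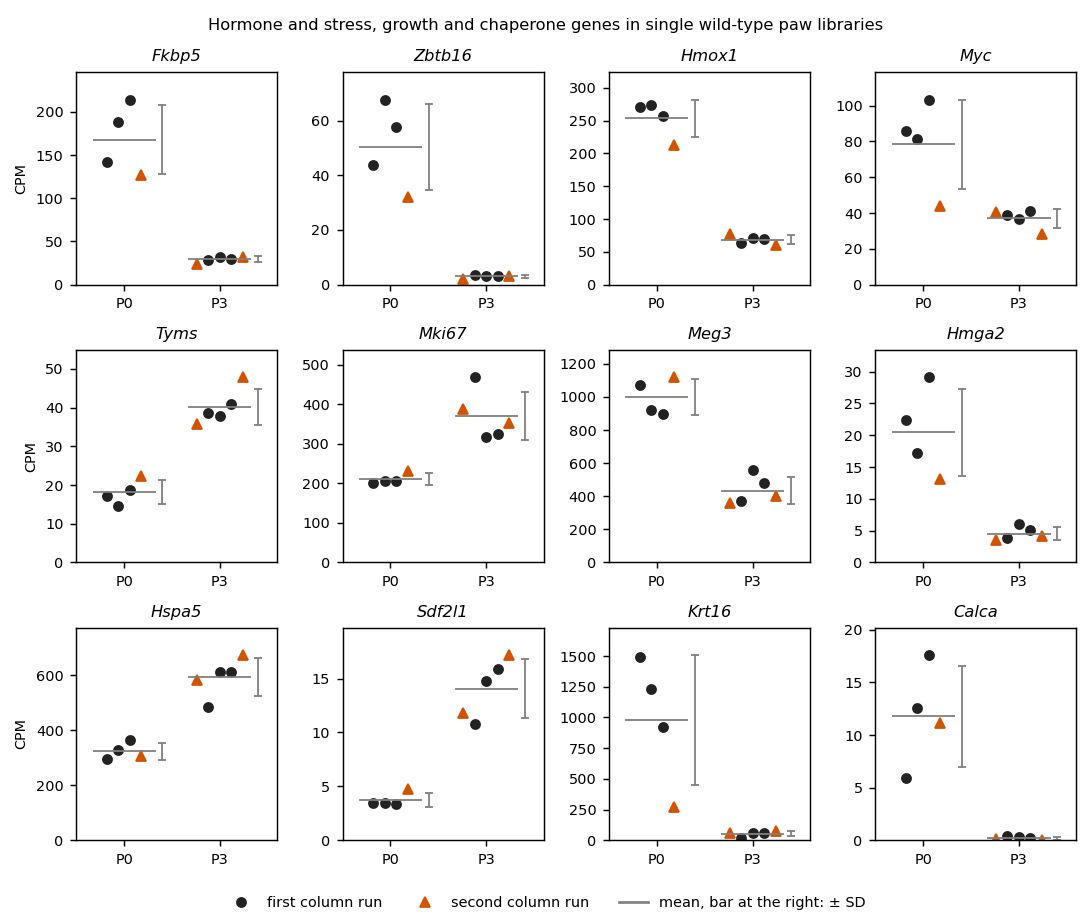
Normalised level (CPM, linear axis from 0) of 12 genes in each WT library on P0 (4 libraries) and P3 (5 libraries). Black circles are libraries of the first run of deposited columns and orange triangles those of the second, the grey line is the mean and the grey bar its SD. Fkbp5, Zbtb16 and Hmox1 do not overlap between days, and the orange P0 library lies lowest of the P0 libraries for Krt16 (267 CPM) and Myc (44.0 CPM).

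Genes of the cell cycle were higher on P3. Of 42 genes of the G1/S transition and DNA replication, 34 rose and 0 fell (median 0.75), and of 51 genes of G2 and mitosis 27 rose and 0 fell (median 0.41). The thymidylate synthase Tyms (ENSMUSG00000025747.13), which makes a building block of DNA, stood at 17.3, 14.6, 18.6 and 22.3 CPM on P0 and at 35.6, 38.6, 37.8, 40.9 and 47.8 CPM on P3. All 5 P3 libraries lay above all 4 P0 libraries, and Tyms rose by 1.14 (SE 0.13, edgeR's adjusted p = 0.000377). E2f2, a transcription factor of the E2F family that drives entry into S phase, rose by 1.62 (SE 0.21), from 13.1 ± 1.5 CPM (SD, n = 4) to 41.5 ± 9.69 CPM (n = 5). Cdc45, a part of the replicative helicase, rose by 0.93 (SE 0.12) and the thymidine kinase Tk1 by 0.76 (SE 0.10). The proliferation marker Mki67 held 201, 205, 205 and 232 CPM on P0 and 387, 467, 317, 326 and 353 CPM on P3, a rise of 0.81 (SE 0.13). Top2a, the topoisomerase that untangles chromosomes, rose by 0.71 (SE 0.10), the spindle checkpoint kinase Bub1b by 0.76 (SE 0.11) and the cyclin Ccna2 by 0.57 (SE 0.11). The medians were 0.87 and 0.54 in the first column run and 0.47 and 0.21 in the second, where 8 replication genes and 1 mitotic gene were called. Without any one of P0 replicates 1, 2 or 3 the count of mitotic genes that rose was 15, and without P3 replicate 2 it was 16. Of 29 replication-dependent histone genes 1 was called, Hist2h3c2, at 0.192 ± 0.0848 CPM on P0 and 0.717 ± 0.0551 CPM on P3, a level of few reads. The call of Hist2h3c2 was lost without P0 replicates 1, 2 or 3 or P3 replicate 4 (1.83, 1.64, 2.01 and 1.79), and histone genes come in near-identical copies whose reads the counting could split.

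Promoter sequence was examined because genes of mitosis are known to share the CHR element and the CCAAT box, through which the DREAM complex and NF-Y act, and the genes here moved together. RefSeq windows of GRCm38.p6, from 250 bases before to 50 after the transcription start, were found for 44 of the 51 mitotic genes. A CHR (TTTGAA or TTTAAA on either strand) was present in 38 of them (86.4%), against 27.8% of all 27025 windows. It stood in 19 of the 23 windows of mitotic genes that rose and in 19 of the 21 of those not called. A CCAAT (either strand) was present in 33 (75.0%, against 37.9%), and both were present in 31 (70.5%, against 10.9%). For replication genes the E2F sites TTTCCCGC or TTTGGCGC stood in 12 of 35 windows (34.3%), against 1.63% of all, with 10 of 27 among the genes that rose and 2 of 8 among those not called. The E2F sites were searched after the values were seen. Mki67 and Top2a are printed to show the arrangement, as the 250 bases before the start on the gene's own strand, with each CHR and CCAAT in capitals (ATTGG and TTCAAA are the motifs on the other strand). The Mki67 window is chr7:135716380-135716629, minus strand, and the Top2a window chr11:99024190-99024439, minus strand.
Mki67: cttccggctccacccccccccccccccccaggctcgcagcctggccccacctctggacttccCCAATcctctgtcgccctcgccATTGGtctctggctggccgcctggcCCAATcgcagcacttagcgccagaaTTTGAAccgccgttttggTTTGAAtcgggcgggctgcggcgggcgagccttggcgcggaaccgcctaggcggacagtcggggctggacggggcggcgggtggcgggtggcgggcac
Top2a: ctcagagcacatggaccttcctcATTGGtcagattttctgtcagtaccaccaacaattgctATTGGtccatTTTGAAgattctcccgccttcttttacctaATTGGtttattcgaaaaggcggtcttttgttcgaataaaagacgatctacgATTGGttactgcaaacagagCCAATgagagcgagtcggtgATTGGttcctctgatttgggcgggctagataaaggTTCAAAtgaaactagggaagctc
The Mki67 window holds 3 CCAAT and 2 CHR matches, and that of Top2a holds 6 CCAAT and 2 CHR matches. A match is a description of the letters and not a measured binding site.

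Of 32 imprinted and oncofetal growth genes, 17 fell and 0 rose (median -0.62), with 11 lower without P0 replicates 2 or 3. Meg3 (ENSMUSG00000021268.19), a maternally expressed long noncoding RNA, stood at 1071, 919, 897 and 1118 CPM on P0 and at 360, 373, 557, 480 and 400 CPM on P3. The groups did not overlap, though reads of genes that overlap Meg3 on the other strand cannot be told apart where the counting's strand setting is not given (log2 fold change -1.18, SE 0.17, edgeR's adjusted p = 0.00102). Dlk1, a paternally expressed gene of the same chromosome 12 cluster that holds back differentiation of fat and muscle precursors, fell by 1.22 (SE 0.22), from 1281 ± 191 CPM (SD, n = 4) to 546 ± 198 CPM (n = 5). Hmga2, a chromatin protein of embryonic growth, fell by 2.17 (SE 0.29), from 22.4, 17.1, 29.1 and 13.1 CPM to 3.49, 3.78, 6.06, 5.15 and 4.23 CPM. Plagl1, a zinc finger factor of an imprinted network, fell by 0.94 (SE 0.13) and the paternally expressed Usp29 by 1.20 (SE 0.19). The list's median was -0.46 in the first run and -0.85 in the second.

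The insulin-like growth factor (IGF) axis gave 7 of 21 lower and 1 higher (median -0.45). The gene that rose was the ligand Igf1, from 116, 194, 140 and 217 CPM to 236, 258, 243, 240 and 288 CPM, by 0.67 (SE 0.14). Its receptor Igf1r fell by 0.92 (SE 0.19), from 155, 169, 172 and 114 CPM to 72.8, 90.4, 99.2, 85.6 and 60.6 CPM. The binding proteins Igfbp3 (-1.04, SE 0.13) and Igfbp2 (-0.95, SE 0.19) fell, as did Socs2 (-0.63, SE 0.12), a brake on growth hormone signalling. Ligand and receptor thus moved in opposite directions, each without overlap between the days. Genes of FGF and EGF signalling gave 13 of 32 lower and 1 higher (median -0.37). The count of lower genes moved with single libraries. It was 3, 2 and 3 without P0 replicates 1, 2 or 3, and 8, 7, 5 and 6 without P3 replicates 1, 2, 4 or 5. Scaled by library size alone it was 6. Leaving out 1 library kept the list's median between -0.44 and -0.29. In the first column run 18 were lower and in the second 0, with medians of -0.38 and -0.14. Nrg1, a ligand of ErbB receptors that axons and other cells make, fell from 7.65, 8.16, 16.5 and 4.24 CPM to 1.76, 1.56, 1.55, 1.79 and 1.24 CPM (-2.52, SE 0.30), and Spry1, a feedback inhibitor of FGF signalling, fell by 0.83 (SE 0.14).

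Of 34 genes of the endoplasmic reticulum (ER) stress and amino acid responses, 10 rose and 5 fell (median 0.07). Leaving out any 1 library left 10 higher, while the number lower was 2, 1 and 0 without P0 replicates 1, 2 or 3, 3 and 2 without P3 replicates 2 or 3, and 1 without P3 replicate 5. ER chaperones had the smallest p of the list and are described for that reason, so they are not a list of their own with a test. Hspa5 (ENSMUSG00000026864.14), which encodes the ER chaperone BiP, held 296, 329, 364 and 306 CPM on P0 and 584, 486, 614, 611 and 673 CPM on P3. The groups did not overlap, and Hspa5 rose by 0.88 (SE 0.12, edgeR's adjusted p = 0.000682). Sdf2l1, an ER protein that works with BiP, rose from 3.45, 3.42, 3.39 and 4.76 CPM to 11.8, 10.8, 14.8, 15.9 and 17.2 CPM (1.91, SE 0.21). Pdia4, a disulfide isomerase, rose by 1.02 (SE 0.11), Creld2 by 1.18 (SE 0.16) and the lectin chaperone Calr by 0.91 (SE 0.14). The ER member of the Hsp90 family, Hsp90b1, rose by 0.79 (SE 0.10). The log2 fold changes of these 6 genes lay between 0.78 and 2.03 in the first run and between 0.77 and 1.61 in the second. Of 30 heat shock chaperones 5 rose and 7 fell (median -0.02). With the run as a term 9 rose. The cytosolic Hsph1 rose by 1.01 (SE 0.16), and the small heat shock protein Hspb1 fell by 1.08 (SE 0.17), by 1.24 in the first run and 0.26 in the second.

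The ER chaperone promoters were examined for the ER stress element, CCAAT and CCACG with 9 bases between them (either strand), through which ATF6 and XBP1 are known to act. This motif was searched after the values were seen. It stood in 5 of 32 list windows (15.6%), against 0.13% of all windows, and all 5 belonged to the 9 genes with a window that rose. The windows of Pdia4 and Sdf2l1, which rose as well, held no match. Those of Hspa5 and Creld2 are printed because they hold the motif and the genes rose. Again the 250 bases before the start are given, with both parts of the motif in capitals. They are chr2:34771840-34772089 and chr15:88819396-88819645, plus strand, GRCm38.p6 of RefSeq, and in Creld2 the motif lies on the other strand.
Hspa5: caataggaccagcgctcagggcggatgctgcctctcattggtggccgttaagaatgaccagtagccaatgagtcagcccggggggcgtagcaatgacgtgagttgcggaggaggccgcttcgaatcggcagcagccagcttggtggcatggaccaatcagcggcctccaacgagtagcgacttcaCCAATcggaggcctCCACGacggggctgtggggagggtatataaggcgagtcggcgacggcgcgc
Creld2: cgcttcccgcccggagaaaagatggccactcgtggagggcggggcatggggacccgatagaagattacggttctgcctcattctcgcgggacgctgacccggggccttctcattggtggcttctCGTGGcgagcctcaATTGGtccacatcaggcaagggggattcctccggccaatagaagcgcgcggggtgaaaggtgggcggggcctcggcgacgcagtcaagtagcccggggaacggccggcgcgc
The same search with a glucocorticoid response element (AGAACA and TGT with 3 bases between them) matched 1 of 25 windows of the glucocorticoid list (4.0%, against 0.396% of all). It too was searched after the values were seen. Of the other motifs, the interferon element GAAANNGAA stood in 15 of 23 windows of interferon response genes (65.2%, against 8.57% of all), a list in which 1 gene was called. The heat shock element GAANNTTC stood in 9 of 23 windows of heat shock chaperones (39.1%, against 7.95%), 2 of the 5 that rose and 2 of the 5 that fell among those with a window. The sterol element TCACNCCAC stood in 1 of 16 windows of cholesterol synthesis genes (6.25%, against 1.22%), and of that list 1 gene was called.

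Muscle genes were called mostly in the lower direction. Of 13 developmental isoforms 8 fell (median -1.26), of 12 slow fibre genes 8 fell (median -1.22), of 21 regulators of myogenesis and fusion 7 fell (median -0.62), and none of these rose. Of the regulators 4 fell and 1 rose without P0 replicate 2, and 12 fell with the run as a term. Myog (ENSMUSG00000026459.6), the factor that commits myoblasts to differentiate, stood at 48.1, 75.2, 46.5 and 49.2 CPM on P0 and at 7.29, 8.09, 20.8, 20.2 and 10.5 CPM on P3 (log2 fold change -1.97, SE 0.32, edgeR's adjusted p = 0.00261). Both membrane fusion proteins of myoblasts fell, Mymk by 1.75 (SE 0.39) and Mymx by 1.62 (SE 0.32), as did Dok7 by 2.05 (SE 0.30), an organiser of the neuromuscular junction. The cardiac isoforms that immature skeletal muscle uses fell as well, Tnnt2 by 1.67 (SE 0.21) and Actc1 by 2.37 (SE 0.43). The embryonic myosin Myh3 went from 874, 1366, 902 and 849 CPM to 178, 188, 486, 372 and 164 CPM (-1.81, SE 0.42). Among slow fibre genes Myl3 fell by 1.85 (SE 0.25), Tnnc1 by 1.44 (SE 0.22) and Tnnt1 by 1.24 (SE 0.17). P3 replicates 1, 2 and 5 held less Myog and Myh3 than replicates 3 and 4, and no P3 library reached the lowest P0 library.

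Mature fast fibre genes gave 4 of 22 lower and 0 higher (median -0.76), and this rested on few libraries. The number lower was 2 without P0 replicates 2 or 3 or P3 replicate 2, 1 without P3 replicate 5 and 0 without P3 replicate 4, and 0 in the first column run against 7 in the second. P0 replicate 2 held 10700 CPM of the list in sum against 3180 to 4530 CPM in the other P0 libraries and 2210 to 2890 CPM on P3. Without it the median was -0.27, and 2 members were called higher and 2 lower. The 4 that fell were the troponin Tnnt3 (-1.01, SE 0.25), the creatine kinase Ckm (-1.43, SE 0.35), the enolase Eno3 (-0.81, SE 0.24) and the myosin light chain Mylpf (-0.74, SE 0.24). The calls of Tnnt3 and Ckm were lost without P3 replicate 4 (-0.87 and -1.34), and that of Tnnt3 also without P3 replicate 5 (-0.88). Without P0 replicate 2 the log2 fold changes were -0.67 for Tnnt3, -0.90 for Ckm, -0.45 for Eno3 and -0.49 for Mylpf, and Eno3 and Mylpf were no longer called. The call of Eno3 was also lost without P0 replicate 3 or P3 replicates 2, 4 or 5 (-0.92 to -0.67), and that of Mylpf without any 1 library other than P3 replicate 1 (-0.87 to -0.49). Glycolysis genes gave 7 of 24 lower and 1 higher (median -0.27), with 3, 2 and 1 lower without P0 replicates 1, 2 or 3 and 3 without P3 replicate 2. Their median was -0.37 in the first run and 0.01 in the second. Among them was Aldoa, an aldolase, at 619, 1017, 704 and 601 CPM on P0 and 423 to 512 CPM on P3 (-0.62, SE 0.15). P0 replicate 2 was the highest for Aldoa too, and the part of muscle in the glycolysis result was not tested.

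**Figure D3:**
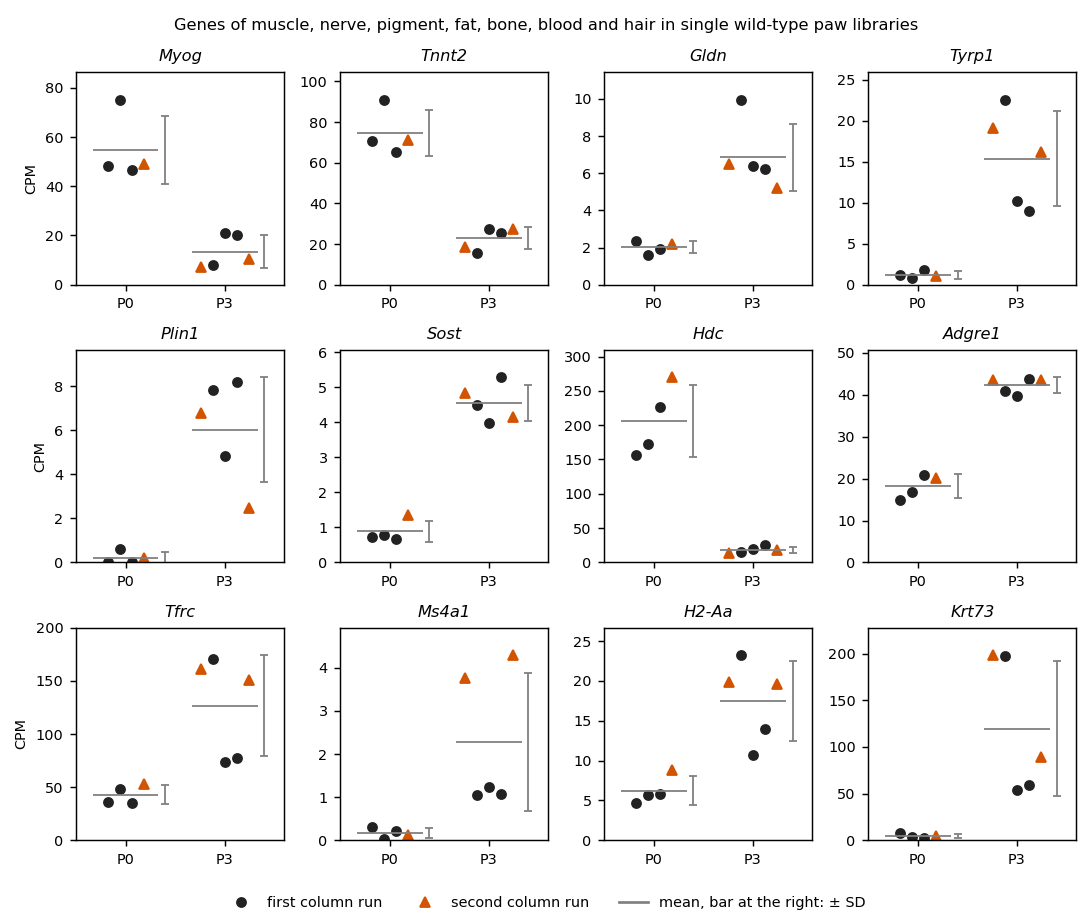
Normalised level (CPM, linear axis from 0) of 12 genes that mark tissues or cell types in each WT library on P0 (4 libraries) and P3 (5 libraries), with symbols as in the plot of hormone, growth and chaperone genes. For Adgre1 the P3 libraries lie between 39.6 and 43.8 CPM, above the P0 range of 15 to 20.8 CPM, while for Krt73 P3 replicates 1 and 2 lie far above the other 3.

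Of 25 genes of haemoglobin and red cell precursors 11 rose and 0 fell (median 1.73). The count was 3, 6, 2 and 7 without P0 replicates 1 to 4 in turn and 5 without any one of P3 replicates 1, 2 or 4, and it was 6 by voom, 5 with litter as a random replicate block and 2 in the first run alone. The transferrin receptor Tfrc, which brings iron into red cell precursors and dividing cells, stood at 35.6, 48.0, 35.1 and 53.2 CPM on P0 and at 161, 171, 73.7, 77.2 and 151 CPM on P3 (1.56, SE 0.28). All P3 libraries lay above P0, with replicates 3 and 4 the lowest of them. Tfrc differed by 1.46 in the first column run, where it was not called, and by 1.56 in the second. The erythropoietin receptor Epor rose by 1.73 (SE 0.37). In sum the list did not separate the days, at 3920, 967, 774 and 750 CPM on P0 and 3270, 2750, 802, 1240 and 1670 CPM on P3, with P0 replicate 1 the highest of all.

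Several white cell lists had more genes higher than lower. Of 24 genes of neutrophil granules and alarmins 8 rose and 0 fell (median 1.22). This count was 1, 2 and 4 without P0 replicates 1, 3 or 4, and 3, 4, 1 and 5 without P3 replicates 1, 2, 4 or 5. In sum the list did not separate the days, at 1840 to 3040 CPM on P0 and 1720 to 3460 CPM on P3. Padi4, a histone-modifying enzyme of neutrophils, rose from 0.183, 1.20, 0.25 and 0.492 CPM to 4.18, 4.43, 2.92, 5.45 and 3.98 CPM (3.11, SE 0.63, edgeR's adjusted p = 0.00647). Of 26 lymphocyte genes 9 rose and 2 fell (median 1.02), and genes of B cells were among those that rose. The B cell surface protein Ms4a1 held 0.314, 0.0376, 0.214 and 0.129 CPM on P0 and 3.77, 1.06, 1.24, 1.06 and 4.29 CPM on P3 (3.65, SE 0.64). The antibody constant regions Ighm and Igkc rose by 2.08 (SE 0.38) and 2.72 (SE 0.49). The genes that fell were the interleukin-7 receptor Il7r, by 1.35 (SE 0.28), and the T cell receptor constant region Trbc2, by 0.81 (SE 0.26). Trbc2 lay at 11.1, 7.75, 5.86 and 3.88 CPM on P0 and at 4.84, 3.47, 4.57, 2.96 and 4.73 CPM on P3, so its groups overlapped, and its call was lost without any one of P0 replicates 1 to 3 or P3 replicates 1 to 4, with values from -0.93 to -0.55.

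Of 25 macrophage genes 13 rose and 0 fell (median 0.46), with 8 higher without P0 replicates 1 or 3. Adgre1 (ENSMUSG00000004730.16), the F4/80 antigen, stood at 15, 16.9, 20.8 and 20.2 CPM on P0 and at 43.4, 41, 39.6, 43.8 and 43.5 CPM on P3. The P3 libraries lay close together and all above P0, and Adgre1 rose by 1.21 (SE 0.14, edgeR's adjusted p = 0.000395). The lysozyme Lyz2, shared by macrophages and neutrophils, rose by 2.03 (SE 0.24), the mannose receptor Mrc1 by 0.61 (SE 0.12) and Ms4a7 by 1.00 (SE 0.18). Genes of antigen presentation and Langerhans cells, the dendritic cells of the epidermis, gave 7 of 18 higher and 0 lower (median 0.76), and 3, 4 and 3 higher without P0 replicates 1, 2 or 3. The class II chain H2-Aa rose from 4.62, 5.68, 5.79 and 8.87 CPM to 19.9, 23.2, 10.7, 14 and 19.6 CPM (1.54, SE 0.30), and its invariant chain Cd74 rose by 1.57 (SE 0.34). Langerin, encoded by Cd207, was at 0.00, 0.00, 0.0357 and 0.0259 CPM on P0 and at 0.880, 2.86, 0.444, 0.0664 and 0.278 CPM on P3. The call of Cd207 was lost without P0 replicates 1 or 3 (4.64 and 5.63) and by limma voom. Of 31 interferon response genes 1 was called, the antiviral enzyme Oas3 (1.28, SE 0.41), whose call was lost without any one of P0 replicates 1 to 3 or P3 replicates 1 to 4, with values from 0.94 to 1.35. In the first run 9 interferon genes were higher (median 0.30) and in the second 0 (median -0.45).

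Mast cell genes gave 5 of 19 lower and 0 higher (median -0.49), and 3 lower without P0 replicate 3. Hdc (ENSMUSG00000027360.6), the enzyme that makes histamine, stood at 156, 172, 226 and 270 CPM on P0 and at 13.5, 15.1, 18.9, 25.6 and 18.8 CPM on P3. It fell by 3.45 on the log2 scale (SE 0.30, edgeR's adjusted p = 0.000332). The tryptase Tpsab1 fell by 2.24 (SE 0.29), and Il1rl1, the interleukin-33 receptor, by 1.26 (SE 0.23). The carboxypeptidase Cpa3 fell by 0.98 (SE 0.23), from 318, 377, 380 and 754 CPM to 150, 166, 242, 264 and 275 CPM, and the factor Gata2 fell by 0.67 (SE 0.18). P0 replicate 4 held the most mast cell RNA of all, 3120 CPM in sum against 1510 to 1790 CPM in the other P0 libraries and 864 to 1530 CPM on P3. The list's median was -0.17 in the first run, with 4 higher and 4 lower, and -1.38 in the second, with 7 lower, and the call of Cpa3 was lost without P0 replicate 3 (log2 fold change -0.93). That of Gata2 was lost without P0 replicates 1 or 3 or P3 replicate 5 (-0.63, -0.57 and -0.56).

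Of 21 adipocyte genes 8 rose and 1 fell (median 0.70), with 4 and 5 higher without P0 replicates 1 or 3. Plin1 (ENSMUSG00000030546.15), the coat protein of the lipid droplet of fat cells, was at 0.00, 0.602, 0.00 and 0.181 CPM on P0 and at 6.77, 7.84, 4.82, 8.21 and 2.47 CPM on P3 (5.13, SE 0.83, edgeR's adjusted p = 0.00248). Cidec, which fuses lipid droplets, rose by 4.71 (SE 0.71), Adipoq, the hormone adiponectin, by 3.61 (SE 0.64) and Pck1, which makes the glycerol backbone of fat, by 3.21 (SE 0.59). P0 replicate 2 had the highest P0 level of Plin1, Cidec, Adipoq and Pck1. The lipase Pnpla2, which other tissues also express, was the member that fell (-0.67, SE 0.18), a call lost without P0 replicates 1, 2 or 3 or P3 replicate 5 (-0.66, -0.49, -0.67 and -0.55). Among lipid synthesis genes 3 of 20 rose and 1 fell (median 0.20), led by the desaturase Scd1, from 51.5, 50, 52.1 and 41.1 CPM to 238, 311, 121, 118 and 146 CPM (1.86, SE 0.34), and the elongase Elovl6 (1.17, SE 0.16). Fatty acid oxidation genes gave 6 of 31 higher and 1 lower (median 0.28), 3 higher without any one of P0 replicates 1 or 3 or P3 replicates 2 or 5 or with no sex term, and 13 higher when scaled by library size alone. Among them was Cpt1a, the gate of fatty acids into mitochondria, at 59.3 ± 6.50 CPM on P0 (SD, n = 4) and 102 ± 12.3 CPM on P3 (n = 5). Of 52 nuclear genes of oxidative phosphorylation 4 rose (median 0.17), a share near the 8.49% of all genes tested. The count was 0, 2 and 0 without P0 replicates 1, 2 or 3, 2 without P3 replicates 1 or 5, and 9 with the run as a term. Of 12 mitochondrially encoded and 76 cytosolic ribosomal protein genes 0 were called (medians -0.04 and -0.08). For these edgeR gave 0 and 3 genes at an unadjusted p under 0.05, DESeq2 called 0 and 1, and voom called 0 of each. In the first run alone 3 mitochondrially encoded and 29 ribosomal protein genes were lower (medians -0.17 and -0.25), in the second 0 of each (medians 0.28 and 0.12), and with the run as a term 1 and 6 were lower. Hypoxia response genes gave 5 of 29 higher and 7 lower (median -0.30, with -0.43 in the first run and 0.04 in the second). The number higher was 3, 2 and 2 without P0 replicates 1, 2 or 3 and 3 and 2 without P3 replicates 3 or 5, and the number lower was 3 without P0 replicate 3. Car9, a carbonic anhydrase induced by low oxygen, fell by 1.17 (SE 0.20) and Ndrg1 by 1.07 (SE 0.13), while the lipid droplet coat Plin2 rose by 0.74 (SE 0.15).

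Of 24 genes of osteoblasts and osteocytes, the cells that form bone and those buried in it, 7 rose and 1 fell (median 0.21), with 4 higher without P0 replicates 1 or 3. The members named here have the smallest p of the list, and no list of osteocyte genes alone was tested. Sost (ENSMUSG00000001494.7), the Wnt inhibitor sclerostin made by osteocytes, stood at 0.732, 0.790, 0.679 and 1.34 CPM on P0 and at 4.84, 4.5, 4.00, 5.28 and 4.14 CPM on P3, a rise of 2.34 (SE 0.39, edgeR's adjusted p = 0.00202). Mepe, a phosphoglycoprotein of osteocytes, rose by 1.83 (SE 0.32) and Kazald1 by 0.99 (SE 0.20). The matrix protein Spp1 (osteopontin) was the 1 that fell (-0.44, SE 0.13), a call lost without any 1 library other than P0 replicate 4 or P3 replicate 1, with values from -0.45 to -0.38. Of 30 cartilage genes 1 was called, and the list's median was -0.16 in the first run and 0.98 in the second, where 14 were higher. Of 16 osteoclast genes 2 were called, Car2, which acidifies bone and is also a red cell enzyme (2.36, SE 0.70), and the calcitonin receptor Calcr (-2.19, SE 0.57). The call of Car2 was lost without any 1 library other than P3 replicate 3, with values from 2.09 to 2.63. That of Calcr was lost without P0 replicates 2 or 3 or P3 replicates 4 or 5, with values from -2.11 to -1.91. In the first run alone 8 osteoclast genes were higher.

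Among connective tissue genes, of 19 collagens 0 were called (median -0.40, with 8 lower in the first run and 4 in the second taken alone, and 11 with the run as a term). For the collagens 4 genes had an unadjusted p under 0.05 by edgeR, DESeq2 called 2 and voom 1. Matrix-modifying enzymes gave 8 of 38 lower and 2 higher (median 0.03), and 11 higher in the first run alone. The crosslinking enzyme Lox stood at 917, 1026, 990 and 936 CPM on P0 and at 674, 589, 552, 551 and 591 CPM on P3 (-0.70, SE 0.11), and the metalloprotease Mmp19 fell by 1.38 (SE 0.20). The intermediate filament protein Vim, a marker of mesenchymal cells, fell by 0.92 (SE 0.12), from 3789 ± 361 CPM (SD, n = 4) to 2008 ± 248 CPM (n = 5), which was among the largest drops in CPM of all genes. Of 20 fibroblast genes 6 rose and 3 fell (median 0.24), with 3 higher without P0 replicates 1 or 3 or P3 replicate 5. The chemokine Cxcl12 rose by 0.73 (SE 0.14) and the pentraxin Ptx3 fell by 1.46 (SE 0.20). The fetal fibrillin Fbn2 and Fbln1 were the 2 of 26 small leucine-rich and elastic matrix genes that were called, at -0.91 (SE 0.22) and -0.73 (SE 0.15). Their share lay near the 8.07% of all genes tested that fell. The call of Fbn2 was lost without P0 replicate 3 (-0.82), and 7 members of that list were higher in the first run alone.

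Pigment cell genes rose. Of 16 melanocyte genes 11 rose and 0 fell (median 1.66), and the median was 1.69 in both column runs. Tyrp1 (ENSMUSG00000005994.15), an enzyme of melanin synthesis, stood at 1.12, 0.790, 1.82 and 1.01 CPM on P0 and at 19.1, 22.6, 10.2, 8.94 and 16.2 CPM on P3 (3.65, SE 0.47, edgeR's adjusted p = 0.000771). The other melanin enzymes Tyr and Dct rose by 1.94 (SE 0.21) and 1.56 (SE 0.23), and the melanosome protein Mlana by 2.25 (SE 0.34). Every P3 library lay above every P0 library for these 4 genes, and for 10 of the 16 members in all. The same held for 1938 of all 21619 genes tested.

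Of 28 Schwann cell and myelin genes 7 rose and 2 fell (median 0.18), with 4 higher without P0 replicate 3 and 0 lower without P0 replicates 2 or 3 or P3 replicate 4. Gldn, which clusters sodium channels at nodes of Ranvier, stood at 2.33, 1.62, 1.89 and 2.2 CPM on P0 and at 6.52, 9.96, 6.38, 6.21 and 5.19 CPM on P3 (1.71, SE 0.31). Every P3 library lay above every P0 library for Gldn. The myelin enzyme Cnp rose by 0.78 (SE 0.16) and Fa2h, a hydroxylase of myelin and skin lipids, by 2.77 (SE 0.54). Of 18 neuronal genes Calca alone was called. Calca (ENSMUSG00000030669.14), which encodes calcitonin and the sensory peptide CGRP, stood at 5.93, 12.5, 17.6 and 11.1 CPM on P0 and at 0.0825, 0.361, 0.285, 0.233 and 0.00 CPM on P3 (-5.83, SE 0.73, edgeR's adjusted p = 0.000823). Paws hold the axons of sensory neurons but not their cell bodies, and the cell type behind Calca was not tested. Of 11 Merkel cell genes 0 were called by edgeR (median 0.65), with 5 at an unadjusted p under 0.05, 3 called by DESeq2 and 0 by voom.

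Of 23 genes of blood endothelium 3 fell and 1 rose (median -0.33), while 12 had an unadjusted p under 0.05 and 16 had a negative log2 fold change. With the run as a term 10 fell and 2 rose. Without P0 replicates 1, 2 or 3 the number lower was 1, 1 and 0, and without P3 replicates 1, 2 or 5 it was 1. One that fell was Pecam1, the CD31 antigen, at 177, 203, 205 and 172 CPM on P0 and 124, 123, 152, 152 and 130 CPM on P3 (-0.46, SE 0.14), a call lost without any 1 library other than P0 replicate 4 or P3 replicate 3, with values from -0.48 to -0.36. Of 17 genes of pericytes and smooth muscle 4 fell and 1 rose (median 0.08). The number lower was 1, 1 and 0 without P0 replicates 1, 2 or 3, and 2 without P3 replicates 1, 2, 4 or 5. The 1 that rose was the pericyte gene Rgs5, by 0.67 (SE 0.15). Among developmental signals, Wnt genes gave 7 of 41 lower and 2 higher (median -0.11), and 3, 4 and 2 lower without P0 replicates 1, 2 or 3. Log2 fold changes put the ligands Wnt4 and Wnt7b at -0.93 (SE 0.18) and -1.04 (SE 0.21) and the secreted inhibitor Dkk1 at 0.92 (SE 0.20). P0 replicate 4 lay at 101 CPM of Wnt4 against 191 to 256 CPM in the other P0 libraries, and Wnt4 differed by -1.03 in the first run and -0.15 in the second. Hedgehog genes gave 4 of 14 lower and 1 higher, with 0, 0 and 1 lower without P0 replicates 1, 2 or 3, and 7 and 1 without P3 replicates 3 or 5. BMP and TGF-beta genes gave 3 of 39 in each direction, near the shares of all genes tested (8.49% higher, 8.07% lower). The number lower was 1 without P0 replicates 1, 2 or 3 or P3 replicates 1 or 2, and 5 without P0 replicate 4. The number higher was 1 without P0 replicates 1 or 3 or P3 replicate 2. Of 20 Notch genes 0 were called by edgeR, with 5 at an unadjusted p under 0.05 and 1 called each by DESeq2 and voom. Among genes of thyroid hormone and retinoic acid, 3 of 26 rose and 4 fell, and without P0 replicate 4 it was 7 that fell. The thyroid receptor Thrb rose by 1.11 (SE 0.21), and the deiodinase Dio2, which activates thyroid hormone, by 1.22 (SE 0.23). Cyp26b1, which degrades retinoic acid, fell by 1.28 (SE 0.15), and Klf9, a target of thyroid and glucocorticoid hormones, by 1.58 (SE 0.23).

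**Figure D4:**
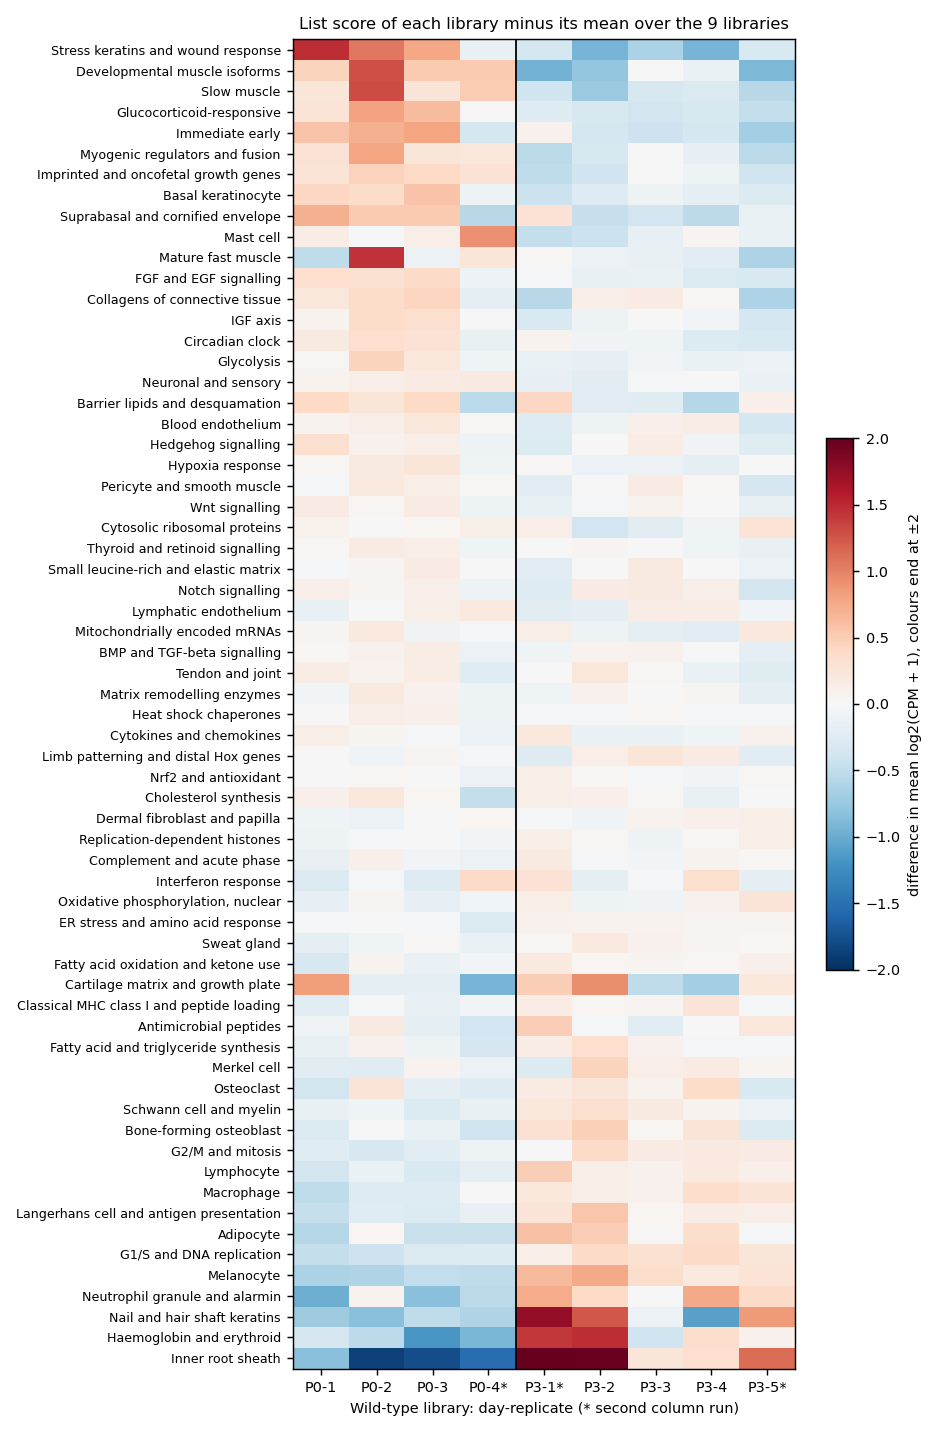
Score of each gene list in each WT library, as the mean of log2(CPM + 1) over its tested genes, less the mean over the 9 libraries (red above, blue below, colours ending at 2 in either direction). Columns are libraries by day and replicate, and an asterisk marks the second column run. P0 replicate 2 stands out for muscle lists and P3 replicates 1 and 2 for red cell and inner root sheath lists, while replication and melanocyte lists separate the days.

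In skin, of 13 genes of the inner root sheath, the sleeve that guides a growing hair, 12 rose and 0 fell (median 3.83). With litter as a random replicate block 7 rose, and the first run alone gave 5 and the second 0 (medians 3.5 and 4.46). Krt73 (ENSMUSG00000063661.7), a keratin of that sheath, stood at 7.84, 3.31, 2.79 and 4.94 CPM on P0 and at 198, 197, 54.2, 59.2 and 89.3 CPM on P3 (4.5, SE 0.61, edgeR's adjusted p = 0.00164). P3 replicates 1 and 2 were the highest, and the groups did not overlap. The keratin of the upper follicle, Krt79, rose by 2.09 (SE 0.22). In the epidermis the sole keratin Krt9 rose from 2.09, 4.59, 7.61 and 5.59 CPM to 32.9, 83.0, 39.8, 74.0 and 39.8 CPM (3.42, SE 0.48), and Krt2, a keratin of the upper spinous layer, rose by 4.64 (SE 0.38), from 4.01 ± 1.73 CPM (SD, n = 4) to 110 ± 33.3 CPM (n = 5).

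Stress keratin and wound response genes gave 13 of 23 lower and 0 higher (median -1.92), and 8 lower without P0 replicate 1. The list's median was -2.92 in the first column run, with 15 lower, and -0.22 in the second, where P0 replicate 4 is the only P0 library. Krt16, induced in stressed epidermis, stood at 1495, 1228, 919 and 267 CPM on P0 and at 59.4, 18.1, 57.3, 58.3 and 78.3 CPM on P3 (-4.17, SE 0.72), and differed by -4.78 in the first run and -1.95 in the second. The small proline-rich gene Sprr2d, one of a family of close copies whose reads the counting could split, fell by 5.82 (SE 0.80). Of 52 suprabasal and cornified envelope genes 17 fell and 5 rose (median -0.55), and of 33 barrier lipid genes 7 fell and 4 rose (median -0.42). Without P0 replicates 1, 2 or 3 the first of these lists gave 10, 11 and 11 lower, and without P0 replicates 1 or 2 the second gave 4. Their direction differed between the column runs. In the first run their medians were -0.92 and -0.94, with 41 and 27 members lower, and in the second 0.76 and 0.74. P0 replicate 4 is the only P0 library of the second run, so an effect of the run and one of that library cannot be told apart. The cornified envelope protein Lor stood at 10510, 7822, 10840 and 4294 CPM on P0 and at 5061, 3730, 4403, 3571 and 3535 CPM on P3 (-1.05, SE 0.17), with P0 replicate 4 among the P3 libraries, and differed by -1.28 in the first run and by 0.000826 in the second. Basal keratinocyte genes gave 12 of 18 lower and 0 higher (median -0.53, with -0.52 in the first run and -0.27 in the second), and 7 and 5 lower without P0 replicates 1 or 3. Dst, a plakin of the basal cell anchor, fell by 0.89 (SE 0.16).

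**Figure D5:**
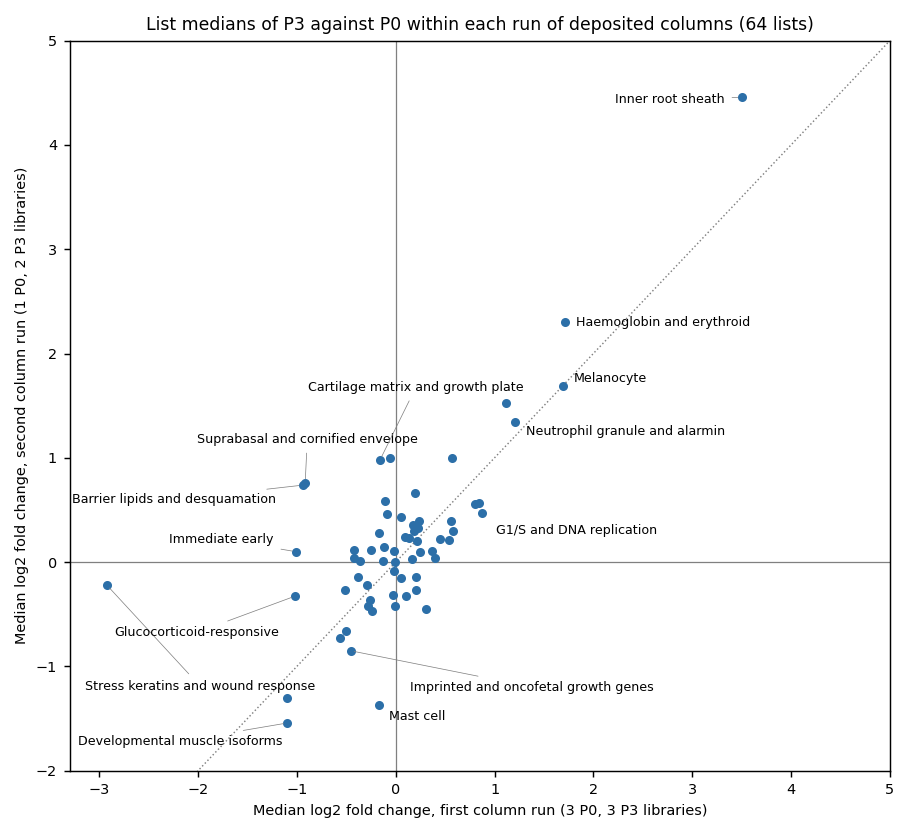
Median log2 fold change of P3 against P0 of each of the 64 lists within the first run of deposited columns (horizontal, 3 P0 and 3 P3 libraries) and within the second (vertical, 1 P0 and 2 P3 libraries), with a dotted line where both are equal. Melanocyte genes lie on the line (1.69 in both), and the cornified envelope, barrier lipid, immediate early and clock lists lie below 0 in the first run and above 0 in the second.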

How the data were processed

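Whole paws were profiled in 14 libraries by ribosomal RNA-depleted RNA sequencing, and 9 were WT (4 of P0, 5 of P3). The deposited table holds raw read counts per gene for 56691 gene IDs, whole numbers whose totals differ between libraries and so taken as not normalised. Per the submitters' processing notes, the tools were limma, edgeR, featureCounts and STAR (2.7.10a) and the build GRCm39, listed without roles. Their filters and the strand setting of the counting are not stated there. Symbols were matched for 52073 IDs, and the 4618 without one held 0.623% of counts.

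Counts were filtered with edgeR's default filter (21619 genes), scaled by TMM and fitted over all 14 libraries with a term for each group of day and genotype and one for sex, so that the spread was shared (edgeR 4.0.16 quasi-likelihood test, R 4.3.3, Benjamini-Hochberg adjustment over all genes). Alternatives used DESeq2 1.42.0 and limma 3.58.1, and tables and plots Python 3.11.15, NumPy 2.4.6, pandas 2.3.3 and matplotlib 3.10.9. Scripts were tested on simulated data. WT libraries held 29019059 to 41004173 counts.

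Genes were named by rule: in each direction the 12 called genes of largest log2 fold change whose days did not overlap and whose higher mean reached 2 CPM, the 10 called genes of largest change in CPM, and per list the 4 called genes of smallest p, or the 2 of highest level where none was called. Genes named beyond the rule complete a small count or were chosen after their values were seen. The members and the 64 lists were chosen with earlier results of these data known.

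Litter numbers were taken as pairing because the labels call them litters, though whether a number is the same litter on both days is not given. Residuals of libraries with equal numbers correlated at -0.171 to 0.0837. Promoter windows came from RefSeq (GRCm38.p6), whose coordinates are not those of the deposited build.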

Additional observations from a re-analysis of the deposited data

Results flagged for a closer look

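Within the P0 or P3 WT group, 21 of 268 sets of library values of the genes named (7.84%) had 1 library far from the others by Dixon's test, and chance flags about 1 in 20. P0 replicate 2 was the highest P0 library for 4 muscle genes, with 565 CPM of Ckm (others 117 to 190 CPM), 1366 CPM of Myh3 (849 to 902), 25.6 CPM of Myl3 (9.82 to 10.4) and 75.2 CPM of Myog (46.5 to 49.2). It was the lowest for Dkk1, at 3.57 CPM (7.18 to 7.43).

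P0 replicate 4 was the highest P0 library for 5 genes, with 754 CPM of Cpa3 (others 318 to 380 CPM), 232 CPM of Mki67 (201 to 205), 9.16 CPM of Per3 (7.05 to 7.15), 4.76 CPM of Sdf2l1 (3.39 to 3.45) and 1.34 CPM of Sost (0.679 to 0.790). P0 replicate 3 was high for Dct, at 20.4 CPM (9.48 to 11.1), and Kazald1, at 28.8 CPM (22.3 to 23.4). P0 replicate 1 was low for Plagl1, at 524 CPM (632 to 650).

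Among P3 libraries, replicate 2 was high for Cd74 at 59.4 CPM (others 29.3 to 34.6), Fa2h at 43.2 CPM (12.2 to 18.8) and Gldn at 9.96 CPM (5.19 to 6.52). It was low for Ptx3 at 6.18 CPM (10.5 to 11.7) and Wnt7b at 36.6 CPM (47.7 to 52.2). Replicate 1 was high for Ccn2 at 172 CPM (63.0 to 82.2) and low for Hsph1 at 50.1 CPM (61.0 to 63.5), and replicate 5 was low for Cry2 at 31.1 CPM (43.3 to 45.6).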

How the results depend on the processing

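The count of 3581 genes stayed within 1.5 times under other scalings, filters and tools (3415 to 4696, from leaving out the sex term to DESeq2). With the litter number as a replicate block it was 3 (fixed) and 3252 (random), and 1904 in WT litters 1 and 2. The 2 P3 males of litter 2 entered the main fit as separate samples, and with their counts summed the count was 2913. It was 5570 with the column run as a term, 6563 and 985 within the first and second run, and 1249 at 2-fold or more. Leaving out 1 library gave 1629 to 4108. The cause of these differences was not tested, beyond fewer samples or a stricter rule. The genotype difference gave 87 genes by DESeq2, 7 with the run as a term and 0 with litter as a fixed replicate block. Scaling by library size alone moved the median of all genes from -0.00964 to 0.104. Of 134 genes named in the results above, the sign reversed only within the second run, for Lor (0.000826) and Trbc2 (0.302). Genes under 1 CPM rest on few reads, and their fold changes are imprecise.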

Other observations

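The 11 genes of smallest p outside the 64 lists, leaving out predicted and clone-named genes, were chosen after their values were seen, and Krt79, 1 of them, is described above. Nccrp1, an F-box-like protein of stratified epithelia, fell from 202 ± 73.8 CPM (SD, n = 4) to 69.0 ± 18.7 CPM (n = 5), and the oxidase Duox1, which makes hydrogen peroxide, from 33.2 ± 11.8 CPM to 11.4 ± 1.47 CPM. Angptl7, a secreted angiopoietin-like protein, fell by 2.57 on the log2 scale (SE 0.27). The prolactin receptor Prlr rose from 3.11 ± 0.660 CPM to 10.9 ± 1.79 CPM. Serpina3n, a serine protease inhibitor, fell by 1.88 (SE 0.21), Inha, the alpha subunit of inhibins, by 1.29 (SE 0.14), and Spock2, a matrix proteoglycan, by 1.76 (SE 0.20). Pclaf, which binds the replication clamp, rose by 1.09 (SE 0.12), and Csrp3, a muscle LIM protein, fell by 1.62 (SE 0.19). Tnfrsf13b, a receptor of B cells, rose by 1.69 (SE 0.20).

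By gene class, 10.6% of 16290 protein-coding genes were higher and 9.39% lower. Of 911 lincRNAs 3.73% were higher and 5.93% lower, and of 893 antisense genes 2.02% and 4.59%. All of these were counted without a stated strand setting, so antisense reads cannot be told apart from those of the gene opposite.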
